A study of Mus musculus with 2 samples.

Results

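The genes described here are 10 enzymes of glycolysis, namely Hk1, Hk2, Hk3, Gpi1, Pfkl, Aldoa, Pgk1, Eno1, Pkm and Ldha, out of 32285 genes listed for each library. They were picked by symbol as enzymes of the pathway, by a rule that uses no measured value, although earlier results of these data were known. Aldoa is listed under 2 identifiers, so that the 10 symbols take 11 gene entries, and the second Aldoa entry held only 3 unique molecular identifiers (UMIs) in one library and 1 in the other. The data are droplet-based 3′ single-cell RNA sequencing of mouse bone marrow from 2 libraries, 1 per genotype, so differences between them have no replicate check. The control (Ctrl) library came from mice labelled only as control, and the Map4k4-cKO (cKO) library from mice whose floxed Map4k4 alleles were deleted by Mx1-Cre after poly I:C, both aged 13 to 14 weeks on a C57BL/6 background. According to the study's methods both groups are littermates that carry Mx1-Cre, although the control is written there as Mx1-Cre Map4k4-/-, and neither poly I:C treatment of the controls nor the number of mice per library is given in the sources used here. Mx1 is an interferon-inducible promoter and drives Cre in cells other than neutrophils. For both libraries, marrow cells enriched for c-Kit+ were mixed with red cell-lysed whole marrow cells at a ratio of 2 to 3.

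Glycolysis turns glucose into pyruvate in the cytosol and yields ATP without oxygen. Neutrophils have few mitochondria and are known to draw much of their ATP from it, and the same sugar phosphates feed the pentose phosphate branch, which supplies NADPH to the NADPH oxidase. Hexokinase traps glucose as glucose 6-phosphate, phosphoglucose isomerase (Gpi1), phosphofructokinase (Pfkl is its liver type) and aldolase (Aldoa) carry the hexoses down to trioses, phosphoglycerate kinase (Pgk1), enolase (Eno1) and pyruvate kinase (Pkm) make ATP and pyruvate, and lactate dehydrogenase (Ldha) turns pyruvate into lactate and restores NAD+. Hk1, Hk2 and Hk3 are isoforms of hexokinase encoded by separate genes.

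Cells were assigned to classes by marker genes alone, none of which is one of the 10 enzymes. The path to neutrophils had 7 steps: HSC/MPP-like cells (stem and multipotent progenitor markers), Mpo-intermediate cells (some primary granule transcript, such as Mpo), ProNeu-like cells (high primary granule transcripts), PreNeu-like cells (secondary granule and cell cycle transcripts), imNeu-like cells (secondary granule transcripts without cell cycle transcripts), imNeu/mNeu cells (secondary granule and late transcripts together) and mNeu-like cells (late transcripts). The Mpo-intermediate class is called by its rule only, because its leading genes, with Cd34 first, held 0 of the 5 primary granule markers. In every other class at least 1 of its own markers was among the 10 leading genes. The gates select cells by these markers, so this is no check of the class names. The classes rest on thresholds along continuous marker levels, and the share of cells that a shift of the thresholds by a factor of 5/4 would move was 48.0% of the Ctrl and 45.2% of the cKO Mpo-intermediate cells, but 15.6% and 8.73% of the mNeu-like cells. Levels are given as CPM, the usual scaled share of a gene's UMIs among all UMIs of its class, on which 10000 CPM is 1% of the UMIs. Because each UMI counts the 3′ end of 1 transcript, CPM can be set side by side between genes without a correction for length. Sequence shared with other genes can still distort such a comparison, and it was looked up for the 10 enzymes only. Ranges after a CPM are exact Poisson 95% intervals, those after a ratio or a share are exact binomial ones, and both cover counting error only.

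The Ctrl library had 10220 barcodes with 71527701 UMIs and the cKO library 6872 barcodes with 64393950 UMIs. Of these, 9965 and 6718 passed the study's own limits on detected genes and mitochondrial share, 8795 and 5347 also had at least 1000 UMIs, and 7750 and 4428 were assigned to 1 class. The neutrophil path held 265, 375, 621, 1053, 958, 659 and 1465 Ctrl cells and 97, 115, 482, 639, 615, 745 and 1168 cKO cells in the order given above. With a minimum of 50 cells, 16 Ctrl and 9 cKO classes could be described. Depth differed between the libraries, with a median of 2406 UMIs per mNeu-like cell in Ctrl and 6092 in cKO. The libraries shared 3010 barcodes, 2633 of them kept in both, and the same barcode was no more alike across libraries (median cosine of log counts 0.542) than neighbouring shared barcodes were (0.544). Map4k4 itself stood at 72.4 CPM in Ctrl and 64.2 CPM in cKO over all barcodes. These 3′ UMIs do not show whether the floxed part of the gene was present, so the genotype was not checked by them.

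Hypoxia-inducible factors and Myc are known to drive many genes of glycolysis, and the promoters of the 10 enzymes were searched for ACGTG, the core of the sites bound by hypoxia-inducible factors, and for CACGTG, the E-box bound by Myc and related factors, on both strands. Each CACGTG also holds ACGTG on both strands. RefSeq promoters (250 bases upstream of the start, GRCm38.p6) were found for all 10 enzymes, 17 promoters in all. ACGTG lay in a promoter of 6 of the 10 (Hk2, Hk3, Aldoa, Pgk1, Pkm and Ldha), and 18.5% of 27025 genes have such a promoter. CACGTG lay in a promoter of 1, Ldha, and in those of 6.86% of genes. A gene with several promoters has more ways to match. Counted by promoter, ACGTG lay in 7 of the 17 and CACGTG in 1, beside 16.6% and 6.02% of 32851 promoters. The Aldoa promoters among these 7 overlap and hold the same site, which is thus counted more than once. The 3 promoters shown are those of Ldha, which differed 1.95-fold between the libraries in mNeu-like cells and has 2 copies of CACGTG, of Pgk1 with 2 copies of ACGTG, and of Hk3, the enzyme with the widest span along the path and 1 copy. They are written 5′ to 3′ on the strand of the gene with the matches of ACGTG on either strand (written CACGT where it lies on the other strand) in capitals.
Ldha promoter (chr7:46845554-46845803, plus strand): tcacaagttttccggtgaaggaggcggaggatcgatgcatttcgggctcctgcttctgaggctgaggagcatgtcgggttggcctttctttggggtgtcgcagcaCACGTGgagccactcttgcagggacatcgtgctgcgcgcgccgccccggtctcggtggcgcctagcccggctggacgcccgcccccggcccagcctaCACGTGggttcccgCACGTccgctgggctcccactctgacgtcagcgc
Pgk1 promoter (chrX:106186850-106187099, plus strand): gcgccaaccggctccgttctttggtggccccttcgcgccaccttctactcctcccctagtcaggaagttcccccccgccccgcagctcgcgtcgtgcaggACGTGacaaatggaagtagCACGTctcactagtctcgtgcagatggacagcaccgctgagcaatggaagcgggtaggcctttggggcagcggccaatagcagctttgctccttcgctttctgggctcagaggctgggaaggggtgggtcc
Hk3 promoter (chr13:55021386-55021635, minus strand): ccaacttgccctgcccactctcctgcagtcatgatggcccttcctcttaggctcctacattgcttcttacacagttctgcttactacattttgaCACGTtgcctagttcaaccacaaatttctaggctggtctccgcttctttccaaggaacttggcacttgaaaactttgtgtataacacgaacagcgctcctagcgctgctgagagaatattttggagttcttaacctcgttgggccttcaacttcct
In the Ldha promoter the matches begin at -145, -144, -48, -47 and -34 from the start, in the Pgk1 promoter at -150 and -131, and in the Hk3 promoter at -156. The Ldha gene spans chr7:46841475-46855627 on the plus strand, Pgk1 spans chrX:106187100-106203699 on the plus strand and Hk3 spans chr13:55005985-55021385 on the minus strand of the same build. The Ldha promoter shown lies within the span of the gene, upstream of one of its starts. The others lie at chr10:62268855-62379908 (Hk1), chr6:82725025-82774454 (Hk2), chr7:34201330-34230336 (Gpi1), chr10:77986947-78010083 (Pfkl) and chr7:126795234-126800751 (Aldoa) on the minus strand, and at chr4:150236721-150248879 (Eno1) and chr9:59656368-59679375 (Pkm) on the plus strand. A match describes these letters in the window shown and is not evidence of a bound site.

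Together the 10 enzymes made up 0.242% of all UMIs in the Ctrl and 0.349% in the cKO library. Along the neutrophil path their summed level was 1669, 2335, 3023, 2812, 3132, 3448 and 3419 CPM in Ctrl and 1905, 2886, 3649, 3424, 3689, 4027 and 4663 CPM in cKO. It was lowest in HSC/MPP-like cells in both libraries, spanned 2.07-fold over the path in Ctrl and 2.45-fold in cKO, and in Ctrl it was above that of every other class at all 7 stages, except that monocyte-like cells (2148 CPM) stood above the HSC/MPP-like cells. The cells left outside every class had 2847 CPM in Ctrl and 3760 CPM in cKO.

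**Figure D1:**
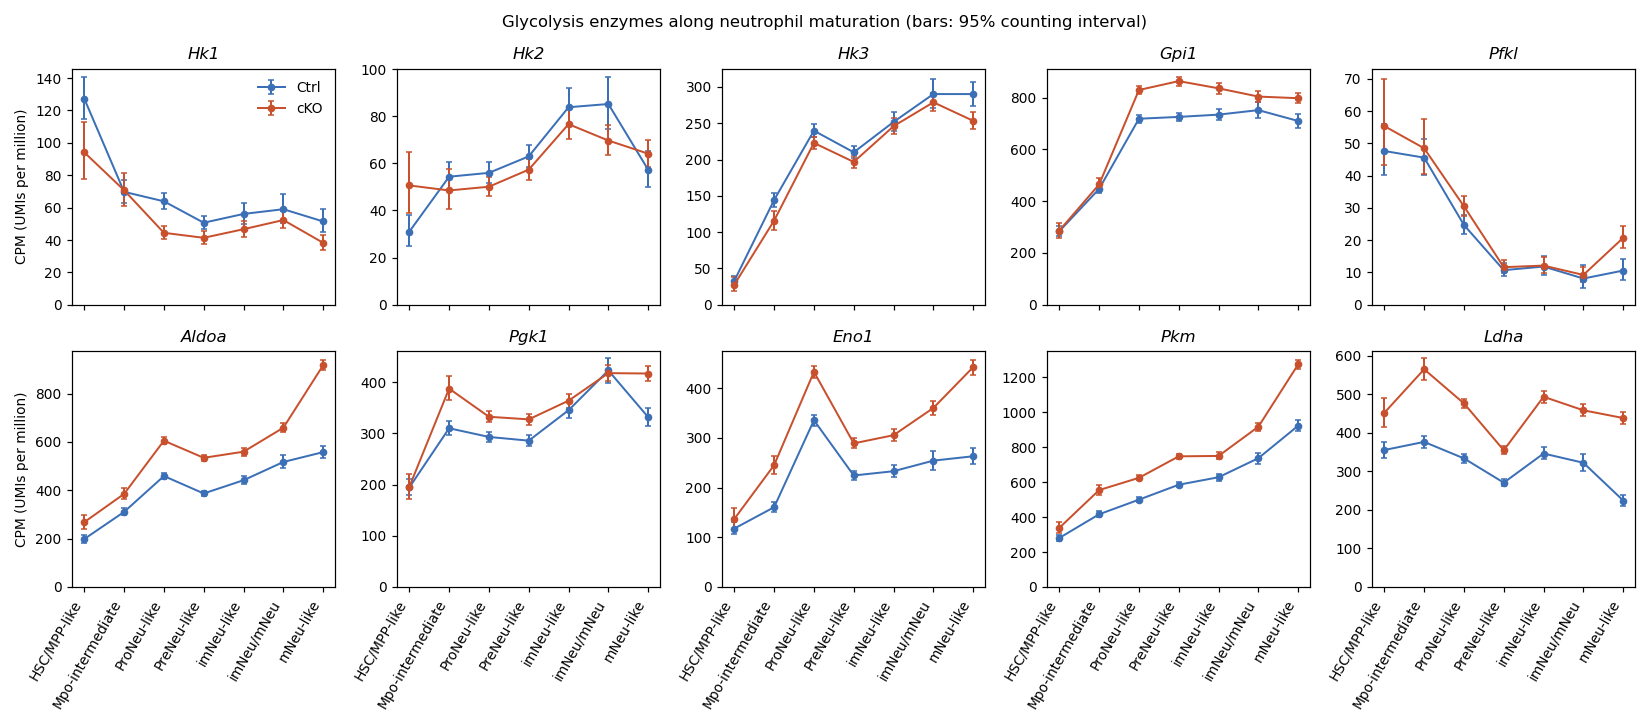
Level of each of the 10 enzymes (y axis, CPM, from 0) in the 7 neutrophil stages (x axis) for the Ctrl library (blue) and the cKO library (orange); points are summed UMIs of a class and bars are 95% counting intervals. Hk3 and Pkm climb from HSC/MPP-like to late stages, Hk1 and Pfkl stand highest at the start, and Aldoa, Eno1, Pkm and Ldha separate most between libraries in mNeu-like cells.

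The 3 hexokinases followed different courses. Hk1, which codes for the hexokinase of most tissues, had 127 CPM (115 to 141) in Ctrl HSC/MPP-like cells, then 69.8, 63.9, 50.7, 56.1, 59.0 and 51.5 CPM up to mNeu-like cells. In cKO the series for Hk1 was 94.1, 70.7, 44.4, 41.4, 46.7, 52.3 and 38.3 CPM. The first stage was the highest in both libraries, at 2.51 times the lowest in Ctrl and 2.46 times in cKO. In Ctrl the intervals of neighbouring stages overlapped from PreNeu-like cells on, while in cKO the mNeu-like cells lay below the imNeu/mNeu cells.

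Hk3, the hexokinase typical of myeloid cells, ran the other way. It had 33.0 CPM (26.8 to 40.1) in Ctrl HSC/MPP-like cells, 144 in Mpo-intermediate cells and 239.7 in ProNeu-like cells, and stood at 209.9, 252, 290.1 and 290.1 CPM in the later stages. In cKO it had 27.7, 116, 223, 197, 246, 279 and 253 CPM. The span over the path was 8.80-fold in Ctrl and 10.1-fold in cKO, the widest of the 10 enzymes in each library. Most of the step lay before the ProNeu-like stage, and between ProNeu-like and mNeu-like cells the log2 difference was 0.28 (0.17 to 0.38) in Ctrl and 0.18 (0.10 to 0.27) in cKO.

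Hk2, the inducible hexokinase, was low throughout, at 31.0, 54.3, 56.0, 62.9, 83.8, 85.2 and 57.3 CPM in Ctrl and 50.6, 48.5, 50.1, 57.3, 76.6, 69.7 and 64.1 CPM in cKO. Its highest values were in imNeu-like and imNeu/mNeu cells, whose intervals overlapped in both libraries.

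As shares of all hexokinase UMIs, Hk1 held 66.6% (62.6 to 70.4) in Ctrl HSC/MPP-like cells and 12.9% (11.3 to 14.7) in Ctrl mNeu-like cells. Hk3 went from 17.2% (14.3 to 20.5) to 66.7% (65.2 to 68.2) in ProNeu-like and 72.7% (70.5 to 74.9) in mNeu-like cells. In cKO, Hk1 held 54.6% and 10.8% in those first and last stages, and Hk3 16.1%, 70.2% and 71.2% in HSC/MPP-like, ProNeu-like and mNeu-like cells. A share of this kind does not depend on how the libraries are scaled, and the change of the leading hexokinase from Hk1 to Hk3 lay between the HSC/MPP-like and Mpo-intermediate cells in both libraries. Over all alternatives the Hk3 share in mNeu-like cells stayed between 72.2% and 74.8% in Ctrl and between 70.5% and 72.3% in cKO.

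**Figure D2:**
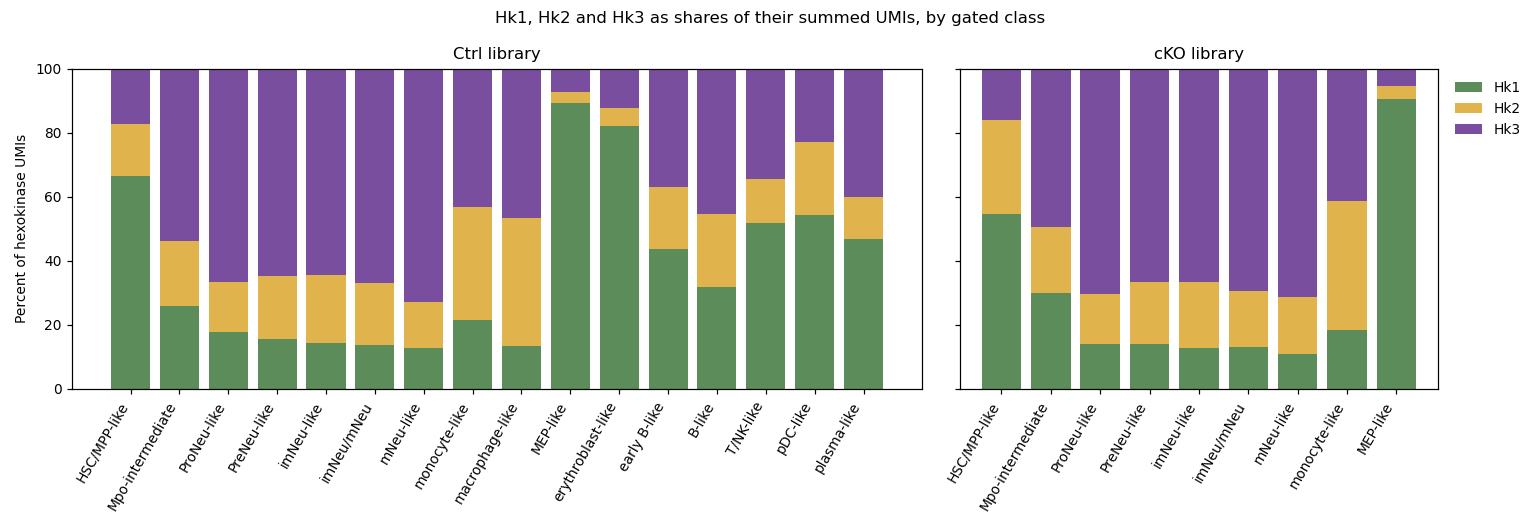
Percent of summed Hk1, Hk2 and Hk3 UMIs (y axis, from 0 to 100) held by each gene in every class of at least 50 cells (x axis), Ctrl on the left and cKO on the right. Hk1 leads in HSC/MPP-like, MEP-like and erythroblast-like cells and, on few UMIs, in Ctrl early B-like, T/NK-like, pDC-like and plasma-like cells, and Hk3 leads in all neutrophil stages from Mpo-intermediate cells on, with 72.7% in Ctrl and 71.2% in cKO mNeu-like cells.

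Among the enzymes of the hexose steps, Gpi1 was one of the most abundant, and Pfkl was the scarcest from ProNeu-like cells on. Gpi1 had 284, 447, 718, 725, 734, 751 and 709 CPM along the path in Ctrl and 286, 464, 829, 863, 835, 804 and 797 CPM in cKO. In CPM it reached its plateau at the ProNeu-like stage. From there to mNeu-like cells the log2 difference was -0.02 (-0.08 to 0.04) in Ctrl and -0.06 (-0.10 to -0.01) in cKO. The plateau depends on the scaling, since over the alternatives this difference ranged from -0.44 to 0.75 in Ctrl and from -0.56 to 0.98 in cKO.

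Pfkl had 47.6, 45.6, 24.7, 10.7, 11.8, 8.13 and 10.6 CPM in Ctrl and 55.4, 48.5, 30.5, 11.6, 12.1, 9.24 and 20.7 CPM in cKO. It fell from ProNeu-like to mNeu-like cells by 1.22 on the log2 scale in Ctrl (265 UMIs against 42), past 1.5-fold, and the log2 difference in cKO was -0.56 (-0.84 to -0.28). The counts behind the late stages were small, with 23 UMIs in the Ctrl imNeu/mNeu cells. Of all phosphofructokinase UMIs, Pfkl held 32.6% (24.6 to 41.4) and the platelet type Pfkp 65.1% in Ctrl mNeu-like cells, against 49.4% (43.7 to 55.0) and 49.0% in cKO mNeu-like cells.

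Aldoa had 198, 311, 459, 387, 442, 517 and 558 CPM in Ctrl and 268, 385, 605, 534, 559, 659 and 917 CPM in cKO. In both libraries it was highest in mNeu-like cells, although in Ctrl their interval overlapped that of imNeu/mNeu cells. Its log2 difference from the ProNeu-like stage was 0.28 (0.21 to 0.35) in Ctrl and 0.60 (0.55 to 0.65) in cKO, where it passed 1.5-fold. Over the alternatives the Ctrl value ranged from -0.14 to 1.05, so its sign depends on the scaling. The cKO value ranged from 0.10 to 1.64, and it missed 1.5-fold with all thresholds doubled (0.45) and without mitochondrial, ribosomal, haemoglobin and immunoglobulin genes (0.10).

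Of the enzymes of the triose steps, Pkm kept its increase from ProNeu-like to mNeu-like cells under every scaling. It had 281, 416, 500.02, 586, 628, 738 and 924 CPM in Ctrl, increasing in CPM at each of the 6 steps. In cKO it had 339, 555, 625, 748, 750.3, 918 and 1275 CPM, where the imNeu-like step did not differ from PreNeu-like cells beyond counting error. The single steps were not run under the alternatives. Mitochondrial, ribosomal, haemoglobin and immunoglobulin genes took 28.6% of UMIs in Ctrl ProNeu-like and 7.64% in Ctrl PreNeu-like cells. In cKO they took 31.7% and 8.26%, so the rise in CPM between these stages depends on the scaling. From ProNeu-like to mNeu-like cells it rose 1.85-fold in Ctrl (log2 0.89, 0.82 to 0.95) and 2.04-fold in cKO (1.03, 0.98 to 1.07). Nearly all pyruvate kinase UMIs in mNeu-like cells were Pkm, with 4 UMIs of the liver and red cell gene Pklr beside 3661 of Pkm in Ctrl and 3 beside 9528 in cKO. Counts at the 3′ end do not separate the PKM1 and PKM2 splice forms.

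Pgk1 had 194, 309.9, 293, 286, 345, 423 and 331 CPM in Ctrl and 195, 387, 332, 327, 364, 417 and 417 CPM in cKO, a span of 2.18-fold and 2.14-fold. Eno1 had 117, 160.4, 335, 224, 233, 254 and 263 CPM in Ctrl and 137, 245, 433, 289, 305, 360.0 and 442 CPM in cKO, with a local peak at the ProNeu-like stage in each. Of the 50-base windows in the last 500 bases of the Eno1 transcripts, 75.2% are found in Eno1b as well. Reads from shared windows may be lost or credited to either gene, so the Eno1 values are uncertain to that extent. The direction of this error was not tested. For Pgk1 the share was 7.32%, for Gpi1 6.21%, for Aldoa 3.33%, and it was 0 for the other 6 enzymes.

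Ldha had its lowest level at different stages in the 2 libraries. In Ctrl it had 356, 377, 334, 271, 347, 323 and 225 CPM, with the lowest level (210 to 240) in mNeu-like cells. In cKO it had 452, 565, 477, 355, 494, 459 and 439 CPM, with the lowest level in PreNeu-like cells. From ProNeu-like to mNeu-like cells the log2 difference was -0.57 (-0.68 to -0.47) in Ctrl and -0.12 (-0.18 to -0.06) in cKO. Ldha held 97.5% of lactate dehydrogenase UMIs in Ctrl and 99.6% in cKO mNeu-like cells, up from 85.4% and 89.1% in ProNeu-like cells, since Ldhb, the heart-type subunit, went from 56.9 to 5.8 CPM in Ctrl and from 58.4 to 1.9 CPM in cKO.

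Across the maturation comparison as a whole, 1 of 10 enzymes (Pkm) was at least 1.5-fold higher in mNeu-like than in ProNeu-like cells in Ctrl, where 24.8% of 8381 genes were, and 1 (Pfkl) at least 1.5-fold lower, where 56.0% of genes were. In cKO, 2 of 10 (Aldoa and Pkm) were higher, beside 25.2% of 7863 genes, and 0 lower, beside 57.6%. The median log2 ratio was 0.01 for the 10 enzymes and -0.93 for all genes in Ctrl, and 0.11 and -1.10 in cKO. Relative to the median of all genes, 9 of the 10 enzymes were higher in Ctrl, the exception being Pfkl, and all 10 in cKO. How the counts are scaled decides the sign of most of these values. Ribosomal protein genes took 26.1% of UMIs in Ctrl ProNeu-like and 3.86% in Ctrl mNeu-like cells, and 29.5% and 2.99% in cKO. The summed log2 ratio of 0.18 in Ctrl and 0.35 in cKO became -0.24 and -0.15 when mitochondrial, ribosomal, haemoglobin and immunoglobulin genes were left out of the totals, and 0.95 and 1.39 with median-of-ratios scaling. The increase of Pkm kept its direction in every alternative (log2 0.47 to 1.66 in Ctrl and 0.53 to 2.07 in cKO), and so did the decrease of Pfkl in Ctrl (-1.77 to -0.45). Hk3 was between -0.14 and 1.05 in Ctrl and between -0.32 and 1.22 in cKO over the same alternatives.

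UMIs per cell gave another picture, because the total per cell is lower at each stage after the ProNeu-like cells. Ctrl ProNeu-like cells held 4.14 Hk3 UMIs per cell and mNeu-like cells 0.785. The shares of cells with a UMI were 91.5% and 49.4%, and after each cell was thinned to 1000 UMIs they were 20.3% (17.2 to 23.7) and 25.7% (23.5 to 28.1). In cKO they were 91.1% and 72.3% before and 19.9% and 19.4% after thinning. MEP-like cells had the lowest Hk3 CPM of the classes described in both libraries. Their thinned share was 2.78% (1.40 to 4.93) in Ctrl and 6.36% in cKO (110 cells), from cells with a median of 10624 and 16782 UMIs. The share of cells with a Pkm UMI was 95.8% and 84.4% in Ctrl ProNeu-like and mNeu-like cells, and the thinned share was 37.5% (33.7 to 41.5) and 56.9% (54.3 to 59.5), 47.1% and 71.4% in cKO, and 9.11% (6.47 to 12.4) in Ctrl MEP-like cells.

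Outside the neutrophil path, the red cell branch stood apart. MEP-like cells (megakaryocyte and erythroid progenitor markers) had the highest Hk1 level of any class, 171 CPM in Ctrl and 177 CPM in cKO, and in Ctrl the erythroblast-like cells (139.8 CPM) overlapped both them and the HSC/MPP-like cells in their intervals. Hk1 held 89.1% (87.2 to 90.8) of hexokinase UMIs in Ctrl and 90.4% in cKO MEP-like cells. Pkm was at its lowest there, with 57.5 CPM in Ctrl and 47.1 CPM in cKO, and in the Ctrl erythroblast-like cells (60.02 CPM), while Ldha stood at 319 CPM in Ctrl and 549.6 CPM in cKO MEP-like cells. Of pyruvate kinase UMIs in MEP-like cells, 52.3% (48.7 to 55.8) in Ctrl and 50% (43.6 to 56.4) in cKO were of Pklr, the isoenzyme of liver and red cells. Of phosphofructokinase UMIs, 62.7% in Ctrl and 50% in cKO were of Pfkm, the muscle type that red cells also use. Bpgm, which makes the 2,3-bisphosphoglycerate that loosens oxygen from haemoglobin, had 290.2 CPM in Ctrl erythroblast-like and 13.7 CPM in MEP-like cells.

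Monocyte-like cells came closest to the neutrophil stages, with 464 CPM of Pkm, 351 of Aldoa, 337 of Gpi1, 91.3 of Hk3 and 74.5 of Hk2 in Ctrl. Hk2 made up 35.3% (33.0 to 37.6) of hexokinase UMIs in Ctrl and 40.3% (36.7 to 44.0) in cKO monocyte-like cells, more than the 14.4% (12.7 to 16.2) and 18.0% (16.6 to 19.5) in mNeu-like cells of the same libraries. In the Ctrl lymphoid classes the summed level of the 10 enzymes was 1112 CPM in early B-like, 1089 in B-like, 1367 in T/NK-like and 940.2 in plasmacytoid dendritic (pDC-like) cells. Plasma-like cells had the lowest sum, 477 CPM, and immunoglobulin, haemoglobin, mitochondrial and ribosomal genes together took 64.4% of their UMIs. Hexokinase counts in these smaller classes were low, with 15 UMIs in all in macrophage-like, 29 in T/NK-like and 35 in pDC-like cells, so that most neighbours in the order of their levels overlapped.

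**Figure D3:**
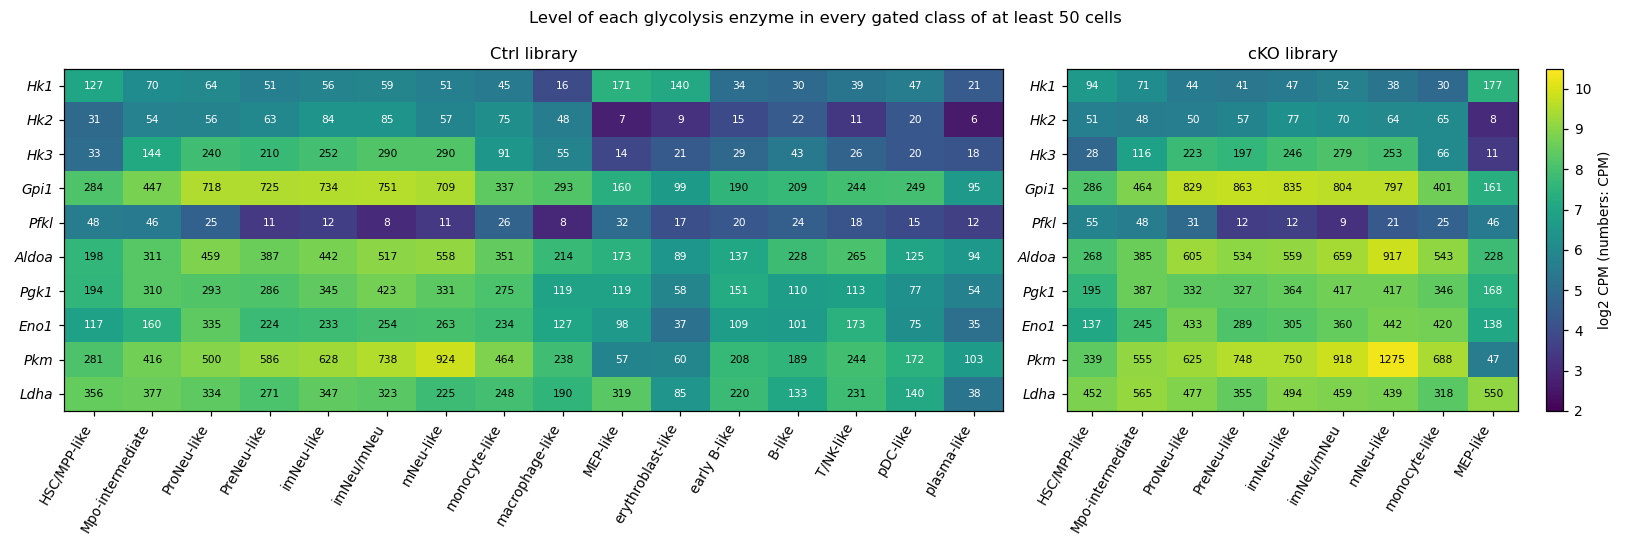
Level of the 10 enzymes (rows) in every class of at least 50 cells (columns), 16 in the Ctrl library on the left and 9 in the cKO library on the right; colour is log2 CPM and the number in each field is CPM. Gpi1, Aldoa and Pkm are the brightest rows in mNeu-like cells, Ldha is the brightest in HSC/MPP-like cells, and the MEP-like columns combine the highest Hk1 with low Pkm (57.5 CPM in Ctrl, 47.1 in cKO).

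Each enzyme was also matched with the genes whose levels followed it most closely over the 16 Ctrl and 9 cKO classes, among 5281 genes. The classes share library, depth and the marker genes that made them, so Pearson's r of log2(CPM + 10) is given as a description. The companions are the 2 genes with the highest r in the library where r was lower. The closest genes were Tal1 and Fbxo3 for Hk1 (r of 0.89 and 0.88 in Ctrl), Sort1 and Dgkg for Hk2 (0.93 each), and F630028O10Rik and Trem3 for Hk3 (0.96 and 0.95). Gpi1 was nearest to Dstn and Chst12, Pfkl to Myc and Thumpd1, Pkm to Pstpip1 and Myl12b, and Aldoa to Eno1 and Gyg. Pgk1 was nearest to Gapdh (0.96 in Ctrl and 0.93 in cKO) and to Hk3 (0.90 in each). Ldha had no close companion, the nearest being Mdh2 with 0.71 in Ctrl and 0.62 in cKO and Wdr5 with 0.79 and 0.62.

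The genes around the 10 enzymes were taken as fixed lists of 18 isoenzymes and remaining steps, 7 transporters, 16 regulators, 8 genes of the pentose phosphate branch and 8 of the glycogen branch. Of the 7 transporters, 4 were at least 1.5-fold higher in mNeu-like than in ProNeu-like cells in each library and 2 lower. For this list and the 4 that follow, 24.8% of all genes were higher and 56.0% lower in Ctrl, and 25.2% and 57.6% in cKO. Slc2a3, which codes for the glucose transporter GLUT3, had 43.1, 13.5, 7.9, 89.2, 169, 386 and 578 CPM along the path in Ctrl and 35.6, 13.5, 5.1, 81.7, 177, 335 and 505 CPM in cKO. It was thus 73.0-fold higher in mNeu-like than in ProNeu-like cells in Ctrl and 98.5-fold in cKO. Slc2a6, another glucose transporter, went from 0.47 to 116.5 CPM in Ctrl and from 1.45 to 117 CPM in cKO. Slc2a1 (GLUT1) went from 5.4 to 20.2 CPM in Ctrl and from 7.0 to 45.9 CPM in cKO. The 2 lactate carriers changed places, with Slc16a3 (MCT4) rising 13.5-fold and 15.02-fold, and Slc16a1 (MCT1) falling from 45.2 to 2.5 CPM in Ctrl and from 37.7 to 1.1 CPM in cKO. Mpc1, a subunit of the mitochondrial pyruvate carrier, was 2.15-fold lower in Ctrl and 1.56-fold lower in cKO mNeu-like cells. The median log2 ratio of all genes was -0.93 in Ctrl and -1.10 in cKO, so in cKO Mpc1 decreased by less than the median gene. For the genes of this list and those that follow, no range over the alternative scalings is given.

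Of the isoenzymes and remaining steps, 5 in Ctrl and 6 in cKO had enough counts for the comparison, and 4 in each library were at least 1.5-fold lower in mNeu-like cells, with 0 higher. Tpi1, triosephosphate isomerase, went from 300.5 to 78.5 CPM in Ctrl and from 381 to 123 CPM in cKO. Pgam1, phosphoglycerate mutase, went from 440.3 to 202 CPM and from 469 to 198 CPM. Gapdh, glyceraldehyde 3-phosphate dehydrogenase, was the most abundant gene of the pathway at 829 to 1409.9 CPM over the Ctrl stages and 1133 to 2462 CPM over the cKO stages.

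Of the 16 regulators, 11 could be compared in each library, with 2 higher and 7 lower in Ctrl and 3 higher and 6 lower in cKO. These counts were near the shares of all genes, 24.8% higher and 56.0% lower in Ctrl and 25.2% and 57.6% in cKO. Pfkfb4, which sets the level of the phosphofructokinase activator fructose 2,6-bisphosphate, was 9.73-fold higher in Ctrl and 10.4-fold higher in cKO mNeu-like cells. Txnip, which restrains glucose uptake, was 14.1-fold and 20.03-fold higher. The genes of the pyruvate dehydrogenase complex, which turns pyruvate into acetyl-CoA, were lower, with Pdha1 3.02-fold, Pdhb 3.77-fold and Dlat 6.41-fold in Ctrl and 2.65-fold, 5.84-fold and 13.8-fold in cKO. Fbp1, an enzyme of gluconeogenesis, went from 39.9 to 1.8 CPM in Ctrl and from 27.6 to 1.7 CPM in cKO.

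In the pentose phosphate branch, 3 of 8 genes were higher and 3 lower in each library. G6pdx, which makes the first NADPH of the branch, was 3.78-fold higher in Ctrl and 5.17-fold higher in cKO mNeu-like cells, Pgd 2.68-fold and 2.73-fold, and Taldo1 3.81-fold and 3.28-fold. Pgls, Rpia and Rpe were lower, with Rpia going from 186.5 to 31.0 CPM in Ctrl. In the glycogen branch, Pygl, the phosphorylase that frees glucose units from glycogen, went from 172 to 1190.2 CPM in Ctrl and from 129 to 1112 CPM in cKO. Ugp2, which makes the UDP-glucose for glycogen, was 2.10-fold higher in each library, and Gys1 and Pgm1 were lower in both. Gys1 did not fall steadily. It was higher in imNeu-like than in ProNeu-like cells, at 89.8 against 50.2 CPM in Ctrl and 85.8 against 39.5 CPM in cKO. These counts stand beside the same shares of all genes as above, 24.8% higher and 56.0% lower in Ctrl and 25.2% and 57.6% in cKO.

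**Figure D4:**
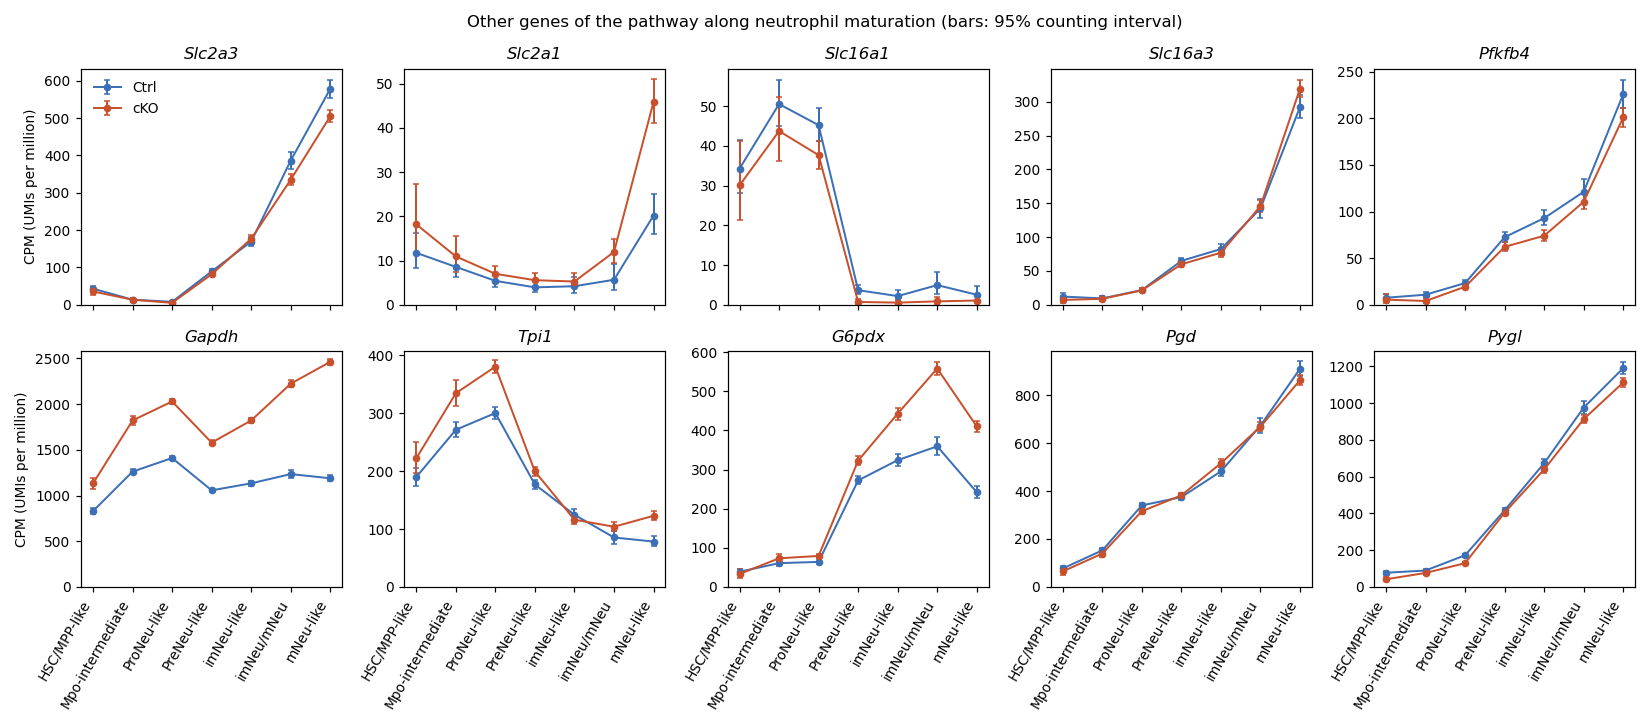
Level (y axis, CPM, from 0) of 10 further genes of glucose use in the 7 neutrophil stages (x axis), Ctrl in blue and cKO in orange, with 95% counting intervals. Slc2a3, Slc16a3, Pfkfb4, Pgd and Pygl climb to the mNeu-like stage in both libraries, Tpi1 and Slc16a1 are lower from PreNeu-like cells on than in ProNeu-like cells, and Gapdh, G6pdx and Slc2a1 are higher in cKO than in Ctrl mNeu-like cells.

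The comparison of the libraries asks how the enzymes differ between Map4k4-cKO and control marrow at matched stages. In mNeu-like cells, Ldha had 439 CPM (424 to 454) in cKO and 225 CPM (210.0 to 239.8) in Ctrl, a ratio of 1.95-fold (log2 0.97, 0.86 to 1.08). Pfkl had 20.7 against 10.6 CPM (log2 0.97, 0.47 to 1.497), Eno1 442 against 263 CPM (0.75, 0.65 to 0.85), Aldoa 917 against 558 CPM (0.72, 0.65 to 0.79) and Pkm 1275 against 924 CPM (0.47, 0.41 to 0.52). Pgk1 was at log2 0.33, Gpi1 at 0.17 and Hk2 at 0.16, and the other hexokinases were below 0, with Hk3 at -0.20 (-0.30 to -0.09) and Hk1 at -0.43 (-0.69 to -0.16). Ldha, Pfkl, Eno1 and Aldoa were thus the 4 of 10 enzymes at least 1.5-fold higher in cKO, where 2.49% of 5978 genes were, and 0 of 10 were at least 1.5-fold lower, where 32.4% of genes were. The sum of the 10 was higher by 0.45 on the log2 scale (0.42 to 0.48), and it lay between 0.41 and 1.001 over all alternatives.

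Most genes of these classes had a log2 ratio below 0, with a median over all genes of -0.12 in HSC/MPP-like, -0.16 in Mpo-intermediate, -0.26 in ProNeu-like, -0.31 in PreNeu-like, -0.34 in imNeu-like, -0.44 in imNeu/mNeu and -0.40 in mNeu-like cells. Relative to that median the difference in mNeu-like cells was 1.37 for Ldha, 0.85 for the sum, 0.21 for Hk3 and -0.02 for Hk1. With median-of-ratios scaling Hk3 and Hk1 changed sign in mNeu-like cells, to 0.36 and 0.13. For Ldha, Pfkl, Eno1, Aldoa, Pkm, Pgk1 and Gpi1 the sign in mNeu-like cells was the same in all alternatives run, and for Hk2 as well.

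At the earlier stages Ldha, Aldoa, Eno1 and Pkm were also higher in cKO, each by less than in mNeu-like cells. Among the alternatives that gave a value, the exception was Eno1 in PreNeu-like cells. It turned to -0.06 among cells with 3000 to 10000 UMIs (497 in Ctrl, 113 in cKO), where Ldha was at 0.20, Aldoa at 0.29 and Pkm at 0.26. That setting gave no value in HSC/MPP-like, Mpo-intermediate and ProNeu-like cells, and clusters gave none in HSC/MPP-like cells. Thresholds halved and no shared barcodes also lacked some stages. The sum of the 10 had a log2 ratio of 0.19 in HSC/MPP-like, 0.31 in Mpo-intermediate, 0.27 in ProNeu-like, 0.28 in PreNeu-like, 0.24 in imNeu-like and 0.22 in imNeu/mNeu cells. Ldha had 0.35, 0.59, 0.51, 0.39, 0.51 and 0.51 at these stages, and Aldoa 0.43, 0.31, 0.40, 0.47, 0.34 and 0.35, each with an interval above 0. Eno1 ranged from 0.22 (-0.05 to 0.49) in HSC/MPP-like cells to 0.61 (0.47 to 0.76) in Mpo-intermediate cells. Hk1 was lower in cKO in ProNeu-like cells (44.4 against 63.9 CPM, log2 -0.52, -0.69 to -0.36), its largest difference on the path. Hk2 stood at 50.6 against 31.0 CPM in HSC/MPP-like cells (log2 0.71, 0.23 to 1.18, from 64 and 95 UMIs) and at 69.7 against 85.2 CPM in imNeu/mNeu cells (-0.29, -0.52 to -0.06), where median-of-ratios scaling turned it to 0.26.

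By the 1.5-fold limit, 1 of 10 enzymes (Hk2) was higher in cKO HSC/MPP-like cells, where 4.64% of genes were, and 2 of 10 (Eno1 and Ldha) in Mpo-intermediate cells, where 2.18% were. In ProNeu-like, PreNeu-like and imNeu-like cells 0 of 10 were higher, beside 0.997%, 0.765% and 1.13% of genes, and in imNeu/mNeu cells 0 of the 9 with enough counts, beside 1.35%. These 4 counts of 0 depend on the scaling. With median-of-ratios scaling, which shifts all genes of a stage by one amount, Ldha, Aldoa and Eno1 passed 1.5-fold at each of these stages. Ldha was then at log2 0.77, 0.75, 0.94 and 1.06. That shift raises the other genes too. The share of all genes past 1.5-fold under it is not given, and the shares above do not apply to it. None of the enzymes was at least 1.5-fold lower at any of these 6 stages, where 13.3%, 12.3%, 16.5%, 18.7%, 25.5% and 36.0% of genes were. In Mpo-intermediate cells the Ldha ratio of 1.501-fold lay at the limit itself.

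**Figure D5:**
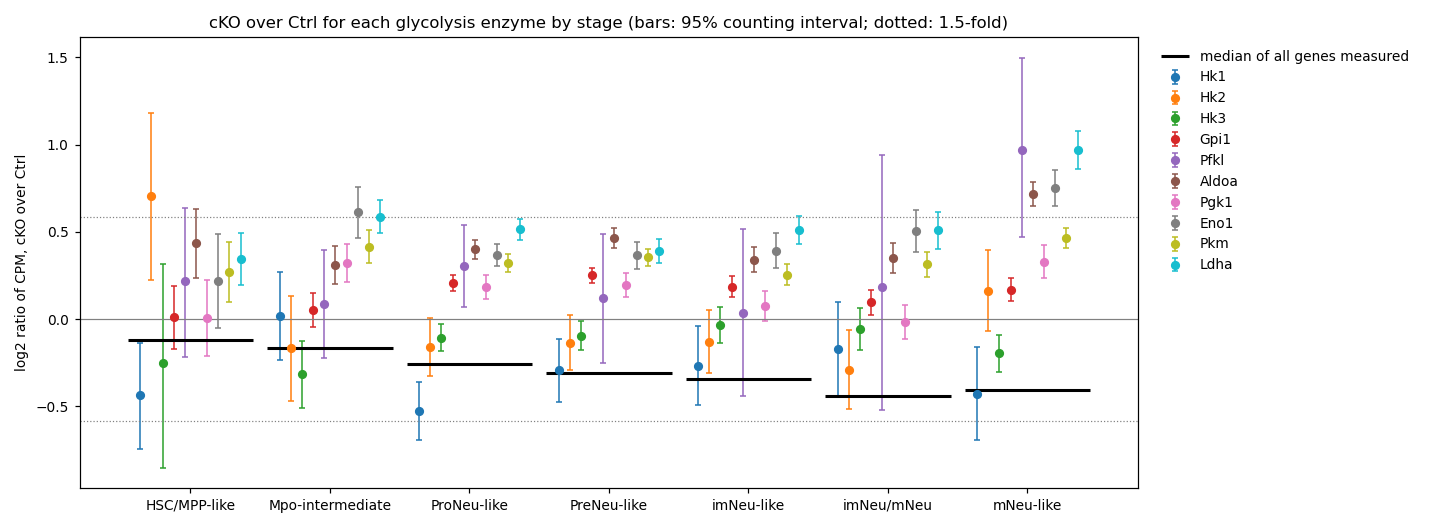
Log2 ratio of CPM, cKO over Ctrl (y axis), of each of the 10 enzymes (colours) at the 7 neutrophil stages (x axis), with 95% counting intervals; the black bar at each stage is the median over all genes measured there and the dotted lines mark 1.5-fold. Ldha, Pfkl, Eno1 and Aldoa pass the upper line in mNeu-like cells, at 0.97, 0.97, 0.75 and 0.72, while Hk1 and Hk3 are below 0 in those cells.

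Other values moved with the difference between the libraries, and their part in it was not tested. Cells were shallower in Ctrl at every neutrophil stage. Among mNeu-like cells with 3000 to 10000 UMIs (480 in Ctrl, median 3945; 895 in cKO, median 6024), the log2 ratio was 0.87 for Ldha, 0.75 for Aldoa, 0.69 for Eno1 and 0.43 for Pkm, and 1.66 for Pfkl, whose Ctrl level there was 7.42 CPM. The erythroblast marker set had a median of 4.76 UMIs per 10000 in Ctrl and 0 in cKO mNeu-like cells, and the primary granule set 11.3 and 5.23. Over the 7 stages the erythroblast median was 1.68 to 4.76 in Ctrl and 0 to 0.35 in cKO. The late neutrophil set had a median of 411 and 501 UMIs per 10000 in the mNeu-like cells of Ctrl and cKO. With all barcodes shared by the libraries left out, the summed log2 ratio was 0.47 in mNeu-like and 0.24 in ProNeu-like cells.

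Beyond the 10 enzymes, 3 of the 5 isoenzymes and remaining steps that could be compared were at least 1.5-fold higher in cKO mNeu-like cells and 0 lower. For this list and the 4 that follow, the shares of all genes are the 2.49% higher and 32.4% lower given above. Gapdh had 2462 against 1188 CPM (log2 1.05, 1.005 to 1.10) and Tpi1 123 against 78.5 CPM (0.65, 0.46 to 0.84), while Pgam1 had 198 against 202 CPM. Eno1b, the last of the 3, had 11.8 against 7.82 CPM and an interval of -0.02 to 1.23, which includes 0. Of the Eno1 windows described above, 75.2% are also found in Eno1b. The Eno1b value thus cannot be taken as separate from that of Eno1. Of the 6 transporters compared, 2 were higher, Slc2a1 (45.9 against 20.2 CPM) and Mpc1 (186 against 116 CPM), and 0 lower, and Slc2a3 was at 505 against 578 CPM. Of the 7 regulators compared, 1 was higher, Hif1a, and 1 lower, Pdhb (11.9 against 19.4 CPM). Hif1a, a subunit of the hypoxia-inducible factor, had 76.8 against 37.8 CPM (log2 1.02, 0.76 to 1.29), and 46.4 against 65.9 CPM in ProNeu-like cells (-0.51, -0.67 to -0.34). In the pentose phosphate branch 1 of 8 was higher, G6pdx with 410.1 against 242 CPM (log2 0.76, 0.66 to 0.87), and 2 lower, H6pd and Rpia. In the glycogen branch 0 of 7 were higher and 1 lower, Gbe1, and Pygl was at 1112 against 1190.2 CPM.

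The monocyte-like and MEP-like classes also had enough cells in both libraries. In monocyte-like cells 2 of 10 enzymes were at least 1.5-fold higher in cKO, where 4.43% of 8260 genes were, namely Eno1 (419.9 against 234 CPM, log2 0.84, 0.75 to 0.93) and Aldoa (543 against 351 CPM, 0.63), and 1 was lower, Hk1 (29.6 against 45.5 CPM, -0.62, -0.92 to -0.33), where 16.7% were. In MEP-like cells 1 of 9 was higher, Ldha with 549.6 against 319 CPM (0.79, 0.69 to 0.88), where 4.88% of 7807 genes were, and 0 lower, where 14.8% were. Pkm there was 47.1 against 57.5 CPM (-0.29, -0.59 to 0.01). Aldoa and Eno1 were above 0 in MEP-like cells as well, at 0.40 and 0.50. Whether the difference between libraries was larger in one class than in another was not tested.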

How the data were processed

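Bone marrow cells of 1 Ctrl and 1 cKO library were profiled with the BMKMANU DG1000 droplet system. The authors deposited raw UMI counts per gene and cell. The submitters' processing notes name Cell Ranger 5.0.0 and the build mm10. Barcodes with 200 to 9000 genes, at most 30% mitochondrial UMIs (limits of the study's methods) and at least 1000 UMIs were kept. Each cell was classed by its marker UMIs per 10000, with at least 3 marker UMIs, and cells that met the gates of several lineages (327 in Ctrl, 66 in cKO) were left out, which stood in for a doublet caller. UMIs were summed per class and divided by the class total. With 1 library per group there is no test, SD or p-value, and 95% intervals cover counting error only. A gene was compared with at least 10 CPM in 1 class and 50 UMIs over the pair, and was called past 1.5-fold. Shares of cells were also given after thinning to 1000 UMIs. The members, lists and marker gates were chosen with earlier results of these data known.

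All 10 enzymes are reported, the other genes came from fixed lists, and those named reached 100 CPM at a neutrophil stage or differed beyond 2-fold between ProNeu-like and mNeu-like cells in both libraries. Bpgm, Eno1b, Gbe1, Gys1, H6pd, Hif1a, Pdhb, Pfkm, Pfkp and Pklr fell outside that rule or were singled out after their values were seen. For each enzyme the 2 genes nearest in level were named. Of 32285 identifiers, 32158 matched GENCODE vM21, and promoter sequences came from RefSeq for GRCm38.p6. Intervals came from scipy 1.17.1 under Python 3.11.15 (pandas 2.3.3, numpy 2.4.6), clusters from leidenalg 0.10.2 with igraph 0.11.9 and scikit-learn 1.9.0, figures from matplotlib 3.10.9, and the ratios and intervals were tested on simulated data. There were 10 alternatives planned and 2 added after the data were seen (cells with 3000 to 10000 UMIs, and no shared barcodes). One result of the glycogen list is not reported here.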

Additional observations from a re-analysis of the deposited data

Results flagged for a closer look

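Hk2 differed between the libraries in opposite directions at 2 stages. Its log2 ratio of cKO over Ctrl was 0.71 (0.23 to 1.18) in HSC/MPP-like cells, from 64 UMIs in cKO and 95 in Ctrl, and -0.29 (-0.52 to -0.06) in imNeu/mNeu cells, from 490 and 241 UMIs. Over the alternatives it ranged from 0.43 (thresholds doubled, below 1.5-fold) to 0.83 in HSC/MPP-like cells and from -0.40 to 0.26 in imNeu/mNeu cells, where median-of-ratios scaling turned the direction. Each interval covers counting error within 1 library per genotype, and the difference between the stages was not tested.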

How the results depend on the processing

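No paired analysis was possible because each genotype has 1 library, and for the same reason no replicate could be left out. The summed log2 ratio of mNeu-like over ProNeu-like cells was 0.18 in Ctrl and 0.35 in cKO. It was 0.13 and 0.27 with all thresholds doubled, 0.27 and 0.43 with all halved, 0.95 and 1.39 with median-of-ratios scaling, and -0.24 and -0.15 without mitochondrial, ribosomal, haemoglobin and immunoglobulin genes, so its direction depends on the scaling. In cKO it was also 0.38 without the gate marker genes, 0.31 with clusters and 0.41 without shared barcodes. The summed log2 ratio of cKO over Ctrl was 0.27 in ProNeu-like cells, and 0.31 with thresholds halved, 0.53 with median-of-ratios scaling, 0.34 without those gene groups, 0.34 with clusters and 0.24 without shared barcodes. In mNeu-like cells it was 0.45, and 0.41 with thresholds doubled, 1.001 with median-of-ratios scaling and 0.42 in cells with 3000 to 10000 UMIs. The cause of these shifts was not tested. The last setting left too few cKO ProNeu-like cells for a value. Pfkl, with 42 UMIs in Ctrl mNeu-like cells, and the hexokinases in the small lymphoid classes rest on few UMIs.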
